A study of Mus musculus with 4 samples.

Results

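Purkinje cells of the Nrgn/Nrp2 subtype were examined in single-cell RNA-seq libraries of mouse cerebellum at E15.5. Barcodes were kept when 500 or more genes were detected and mitochondrial UMIs (unique molecular identifiers, each counting 1 captured transcript) made up no more than 10%. A kept barcode passed the Purkinje gate with 2 or more UMIs of Foxp2, Calb1 and Skor2 together and no UMI of Pax2, an interneuron factor. It was assigned to the subtype when Nrgn, Islr2, Adcyap1 and Nrp2 together had 2 or more UMIs and outnumbered the UMIs of Cntn5, Vstm2l, Brinp3, Nefl and Nefm, which mark another Purkinje subtype. Of 24856 barcodes kept, 245 met these conditions, 88 and 36 from En1/2 CKO replicates 1 and 2 and 118 and 3 from control replicates 1 and 2. En1/2 CKO embryos carried En1lox/lox and En2lox/lox together with Ptf1aCre/+ and R26LSL-tdT/+, and control embryos carried Ptf1aCre/+ and R26LSL-tdT/+ alone. Both genotypes thus carried 1 Ptf1aCre allele and 1 tdTomato reporter allele. Cre under Ptf1a control acts in the cerebellar GABAergic lineage, where it switches on tdTomato and, in the mutants, recombines the floxed Engrailed genes. tdTomato-positive cells were sorted from pooled cerebella, with 2 pools per genotype and an unstated number of embryos in each, so that p-values measure the spread between 2 pools.

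Purkinje cells are the GABAergic projection neurons of the cerebellar cortex, and at this age they are postmitotic, migrate outward and settle in clusters that differ in the genes they express. Foxp2 encodes a forkhead transcription factor of young Purkinje cells, Calb1 the calcium buffer calbindin, and Skor2 a co-repressor needed for Purkinje differentiation. Nrgn encodes neurogranin, which binds calmodulin and is a substrate of protein kinase C. Islr2 encodes a leucine-rich repeat membrane protein that acts with neurotrophin receptors in axon growth, Adcyap1 the neuropeptide PACAP, and Nrp2 the semaphorin co-receptor neuropilin-2. In GRCm38, Nrgn lies on chromosome 9 (37544492 to 37552904) and Islr2 on the same chromosome (58196297 to 58204319). Adcyap1 lies on chromosome 17 (93199017 to 93206537) and Nrp2 on chromosome 1 (62703285 to 62818695).

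The libraries differed in quality, and control replicate 2 stood apart. Barcodes passing the filters made up 63.9% and 69.8% of the En1/2 CKO libraries, and 94.6% and 25.5% of the control libraries. The subtype cells of control replicate 2 held 8169 UMIs in all, so that 3 UMIs there equal 367 CPM (the gene's UMIs scaled to 1e+06 UMIs of the summed cells) and a value of 0 sets only that upper limit. The same floor was 11.99 and 47.6 CPM in the En1/2 CKO libraries and 14.6 CPM in control replicate 1. The subtype cells had median depths of 2042.5 and 1433 UMIs in the En1/2 CKO libraries and 1508 and 1750 UMIs in the control libraries. Their median mitochondrial share was 6.03% and 6.12% in the En1/2 CKO libraries, against 3.55% and 5.91% in the control libraries. Pairs of libraries shared 10 to 32 barcode sequences, and 3 of the subtype cells carried a barcode sequence that also occurred in another library.

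The Purkinje label rested mainly on Foxp2, which had a UMI in 100% of the cells of both En1/2 CKO libraries and in 99.2% and 100% of those of the control libraries. Calb1 had a UMI in 5.68% and 5.56% of En1/2 CKO cells, against 5.93% of the cells of control replicate 1 and none of the 3 cells of control replicate 2. Skor2 had a UMI in 3.41% and 2.78% of En1/2 CKO cells, against 5.93% and 0 of 3. These genes chose the cells, and 12 further Purkinje genes that had no part in the choice were read as a check. In the 3 larger libraries 9 of the 12 stood higher in the subtype than in cells outside the Purkinje gate, and 7 of 12 did so in all 4 libraries. The share of all genes that did so was not computed, so the counts are a description. Among the 7 were Car8, on 2, 1, 18 and 1 UMIs, and Pcp4. In En1/2 CKO replicate 1 Pcp4 stood at 63.9 CPM, against 56.4 CPM outside the gate. Rora, an orphan nuclear receptor of Purkinje maturation, was at 112, 175, 239 and 245 CPM in the subtype, against 17.8, 17.8, 28.4 and 15.4 CPM outside the gate, with En1/2 CKO replicates 1 and 2 before control replicates 1 and 2. Dner, a Notch-related membrane protein of Purkinje dendrites, was at 508, 698, 595 and 857 CPM in the subtype and at 153, 176, 430.4 and 139 CPM outside it. Dner was thus higher in every library, and Rora in the 3 larger ones. In control replicate 2 the 245 CPM of Rora lay under the floor of 367 CPM. The reporter transcript had a UMI in 53.4% and 44.4% of En1/2 CKO cells, against 49.2% of the cells of control replicate 1 and 3 of 3 in control replicate 2. Outside the gate the shares were 61.2% and 53.2% in the En1/2 CKO libraries, against 42.8% and 69.0% in the control libraries. The reporter thus does not set the subtype apart. Itpr1, Lhx5 and Esrrb were the exceptions, with Itpr1, the inositol trisphosphate receptor of mature Purkinje cells, at 0, 0, 4.87 and 0 CPM.

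Markers of other cerebellar cells ranged widely. GABAergic interneuron markers summed to 1679 and 1539 CPM in the En1/2 CKO subtype cells and 1487 and 367 CPM in the control subtype cells, against 1186, 1198, 2180 and 1038 CPM outside the gate. Granule lineage markers summed to 1767 and 1619 CPM in the En1/2 CKO subtype cells and 1028 and 122 CPM in the control subtype cells, against 1736, 1514, 1783 and 1846.5 CPM outside the gate. The 12 Purkinje genes summed to 1719, 2063, 2359 and 2081 CPM in the subtype. Both marker sums came near this in the En1/2 CKO libraries, and the granule sum exceeded it in En1/2 CKO replicate 1. The part of such cells in the other results was not tested. Slc17a6, the vesicular glutamate transporter that defines nuclear projection neurons, had no UMI in any subtype cell. Of the 10 glutamatergic nuclear neuron markers, 7 had none. Meis1, the most abundant of them, stood at 87.9 and 95.2 CPM in the En1/2 CKO libraries. In the control libraries Meis1 was at 34.1 and 122 CPM, the latter on 1 UMI. Microglia markers summed to 4.00 and 15.9 CPM in the En1/2 CKO libraries, against 43.9 and 122 CPM in the control libraries, and vascular and meningeal markers to between 0 and 47.6 CPM. Of 494 microglia barcodes (at least 3 UMIs of complement C1q genes), 0 met the rule. For microglia alone that allows a share of up to 0.744% (exact 95% Clopper-Pearson interval). Of them 6.48% carried an Nrgn UMI and 22.9% an Nrp2 UMI at a median depth of 3249.5 UMIs. Nrp2 had a UMI in only 2.65% to 3.16% of the cells outside the gate, so microglia are no clean gauge of free RNA of this gene. The share of other cell types that met the rule was not tested. Radial progenitor and astroglia markers summed to 2862 and 4031 CPM in the En1/2 CKO cells, against 2598 CPM in control replicate 1 and 16036 CPM in the 3 cells of control replicate 2. Hopx, a homeobox gene of radial and Bergmann glia, alone stood at 2816 CPM there, with all 23 UMIs in 1 of the 3 cells, against 36.0, 63.5 and 24.4 CPM in the En1/2 CKO replicates and control replicate 1. The radial progenitor and astroglia sums, over 16 genes, were above those of the 12 Purkinje genes in every library. The part of radial or astroglial cells in the other results was not tested. The label therefore rests on the 3 larger libraries, and there too markers of other cells reached the level of the Purkinje genes.

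The 4 subtype genes were not evenly shared among the cells, and their mixture differed between libraries. They chose the cells, so their values are given as a description with no test. Nrgn stood at 1611 and 1079 CPM in the En1/2 CKO cells, against 219 and 0 CPM in the control cells. An Nrgn UMI was present in 59.1% (exact 95% interval 48.1 to 69.5) and 47.2% (30.4 to 64.5) of En1/2 CKO cells, against 21.2% (14.2 to 29.7) of the cells of control replicate 1 and 0 of 3 in control replicate 2. Islr2 went the other way between the 3 larger libraries, with 647 and 730.02 CPM in the En1/2 CKO cells and 1511 and 612 CPM in the control cells. An Islr2 UMI was found in 67.05% and 63.9% of En1/2 CKO cells and in 91.5% of the cells of control replicate 1. Adcyap1 stood at 152 and 127 CPM in the En1/2 CKO cells and at 58.5 and 0 CPM in the control cells. Nrp2 stood at 260 and 365 CPM in the En1/2 CKO cells and 395 and 857 CPM in the control cells, with a UMI in 44.3%, 47.2% and 45.8% of the cells of the 3 larger libraries.

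**Figure D1:**
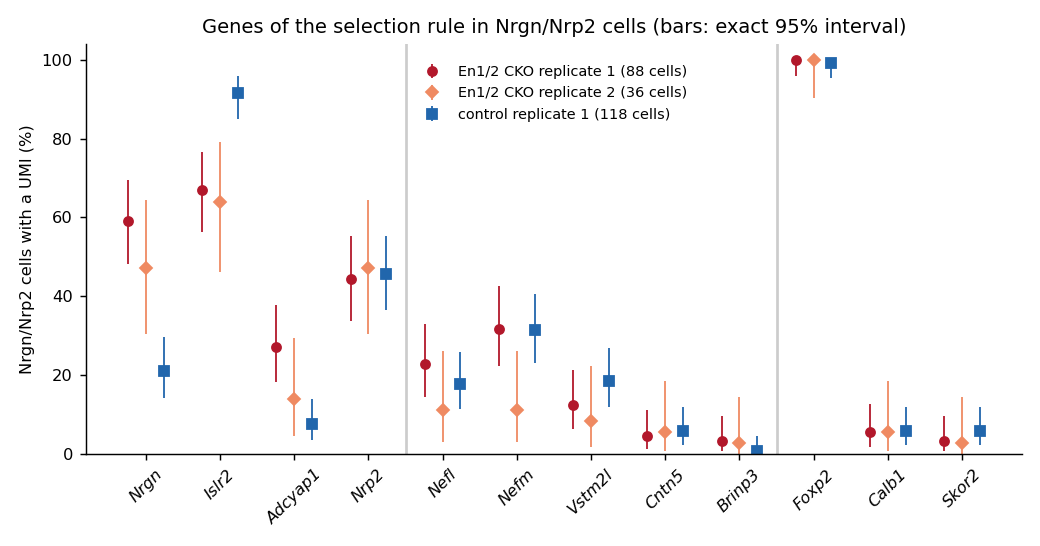
Percent of Nrgn/Nrp2 cells with at least 1 UMI of each gene of the selection rule (y axis) in the 3 libraries with more than 3 such cells; points are libraries and bars exact 95% intervals. Nrgn stands at 59.1% and 47.2% in the En1/2 CKO libraries and at 21.2% in control replicate 1, Islr2 at 67.05% and 63.9% against 91.5%, and Foxp2 near 100% throughout.

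After each cell was thinned to 1000 UMIs, which leaves out shallower cells, the same genes are again given as a description, on few cells and 1 larger control library. Nrgn then had a UMI in 64.5% of 31 cells and 45.5% of 11 cells in the En1/2 CKO libraries, against 16.1% of 56 cells in control replicate 1. Outside the Purkinje gate the thinned Nrgn shares were 5.34% and 4.82% in the En1/2 CKO libraries and 5.75% and 1.497% in the control libraries. For Islr2 the thinned shares within the subtype were 51.6% and 63.6%, against 89.3% in control replicate 1. Islr2 was also less frequent outside the gate in the En1/2 CKO libraries, at 5.27% and 4.37%, than in control replicate 1, at 13.5%, although control replicate 2 stood at 2.00%.

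Most of the cells were defined by 1 or 2 of the 4 genes. Over all libraries 93 cells carried UMIs of 1 gene, 116 of 2, 32 of 3 and 4 of all 4. Islr2 had the most UMIs in 125 cells, Nrgn in 48, Nrp2 in 16 and Adcyap1 in 4, and 52 cells were tied. Nrgn led in 36.4% and 22.2% of En1/2 CKO cells, against 6.78% of the cells of control replicate 1, while Islr2 led in 37.5% and 30.6%, against 67.8%. Nrgn and Islr2 were found together in 51 cells and Islr2 and Nrp2 in 84. The highest count of the 4 genes in a cell was 40 and 22 UMIs in the En1/2 CKO libraries, against 10 and 5 UMIs in the control libraries. The rule's threshold passed through a dense range of counts. Exactly 2 UMIs of the 4 genes were held by 76 members, and 79 further Purkinje-gated cells had 1 UMI and none of the 5 opposing genes. The excess over the opposing genes was 1 UMI in 49 members, and 16 cells with at least 2 UMIs were left out because both sums were equal. The Purkinje gate itself was met by exactly 2 UMIs in 122 members, and 208 cells that met the other conditions had 1 UMI.

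Cells rich in Nrgn were set beside cells without it within the subtype, as a description, since Nrgn is a gene of the rule. Cells with at least 2 Nrgn UMIs numbered 36, 8 and 12 in En1/2 CKO replicates 1 and 2 and control replicate 1, and cells with none numbered 36, 19 and 93. Young neuron genes (21 genes of microtubules, RNA binding and early neuronal transcription factors, such as Tubb3 and Dcx) summed to 32908 CPM in Nrgn-rich cells, against 16839 CPM in Nrgn-free cells of En1/2 CKO replicate 1. The sums were 32770 against 18164 CPM in En1/2 CKO replicate 2, and 22413 against 19529 CPM in control replicate 1. Nrgn-rich cells thus held more of these transcripts in each library, and the gap was smallest in the control. GABAergic interneuron markers, a list with the transcription factors Tfap2a and Tfap2b and the neuropeptide precursor Pnoc, stood at 2179 against 1242 CPM, 2341 against 1204 CPM and 2045 against 1337 CPM in the same order. Purkinje subtype genes (a list of adhesion, Eph receptor, neuropeptide and transcription factor genes that differ between Purkinje clusters) stood lower in Nrgn-rich cells, at 1331 against 2732 CPM, 1077 against 2514 CPM and 1543 against 2785 CPM. The 12 Purkinje genes that had no part in the rule were lower too, at 1441 against 2196 CPM, 1545 against 2159.8 CPM and 1929 against 2525 CPM.

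Radial progenitor and astroglia markers were lower in Nrgn-rich cells as well. They summed to 1060.4 CPM in Nrgn-rich cells, against 6249 CPM in Nrgn-free cells of En1/2 CKO replicate 1, to 2059.8 against 6302 CPM in En1/2 CKO replicate 2, and to 2006 against 2680.2 CPM in control replicate 1. Of 29 sums (28 lists and the 12 Purkinje genes), 16 had at least 20 UMIs on each side in each of the 3 libraries. Of these, 6 were higher and 8 lower in Nrgn-rich cells in every library, and 2 were mixed. Some of the 14 were close to 0 in a library, such as Purkinje transcription factors, with a log2 ratio of -0.03 in En1/2 CKO replicate 1, and dissociation stress genes, with 0.04 in control replicate 1. Nrgn-rich cells were deeper, with medians of 2868.5, 2399.5 and 1941 UMIs, against 1475.5, 1369 and 1489 UMIs in Nrgn-free cells, and the part of depth in these differences was not tested. Since a cell without Nrgn must qualify through the other 3 genes, the contrast is given as a description.

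**Figure D2:**
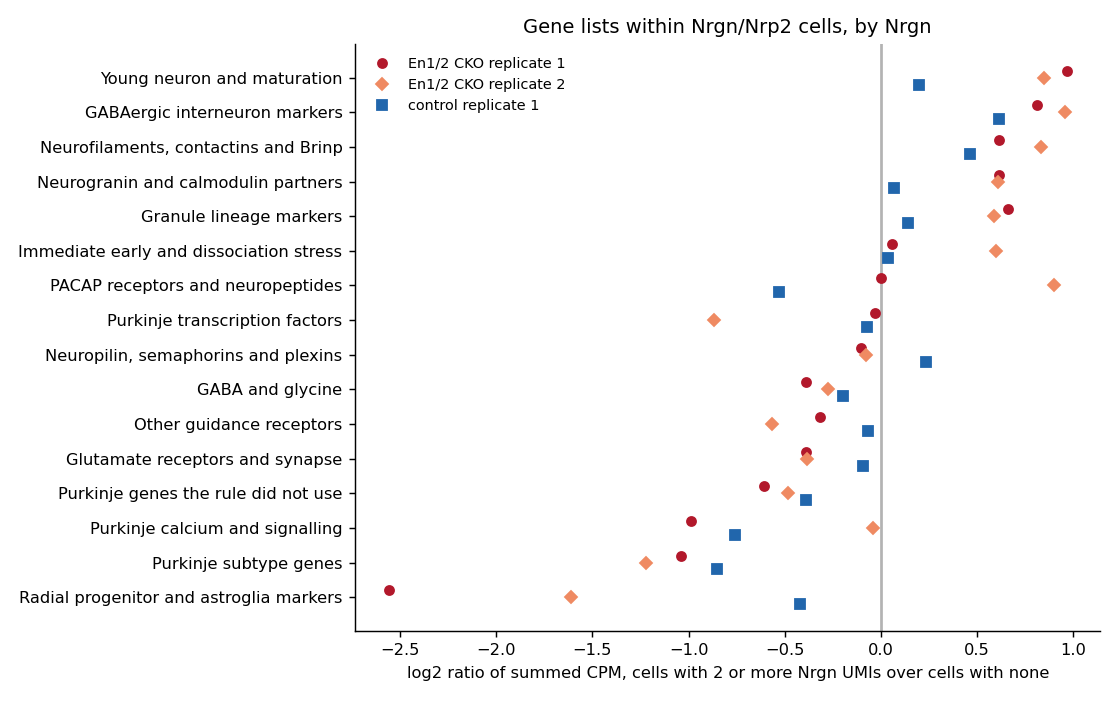
Log2 ratio of the summed CPM of gene lists (x axis) in Nrgn/Nrp2 cells with at least 2 Nrgn UMIs over those with none, for the 16 sums with at least 20 UMIs on each side in each of 3 libraries; each point is a library. Young neuron genes and interneuron markers lie to the right of 0 in each library, and Purkinje subtype genes and radial progenitor and astroglia markers to the left.

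The share of the subtype among Purkinje-gated cells asks whether loss of the Engrailed genes changed how many such cells were found. The subtype made up 36.5% (88 of 241 cells, exact 95% interval 30.4 to 42.9) and 22.2% (36 of 162, 16.1 to 29.4) in the En1/2 CKO libraries, against 36.2% (118 of 326, 31.0 to 41.7) and 12% (3 of 25, 2.55 to 31.2) in the control libraries. The genotypes overlapped, and the replicates of a genotype lay further apart than the genotypes did. The mean was 29.4% ± 10.1 in the En1/2 CKO libraries and 24.1% ± 17.1 in the control libraries (SD, n = 2 each), a difference of 5.27 percentage points (exact permutation test of libraries, 2-sided, p = 0.667). The smallest p that 2 against 2 libraries allow is 0.333. Of all kept barcodes the subtype made up 1.68% and 0.448% in the En1/2 CKO libraries, against 1.13% and 0.255% in the control libraries (exact permutation test, 2-sided, p = 0.667). Neither difference kept its sign without control replicate 2, which had 25 Purkinje-gated cells: it was then -6.83 and -0.0702 percentage points. Without En1/2 CKO replicate 1 the differences were -1.88 and -0.247 percentage points. Intervals cover counting error only.

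The balance with the Nefl/Cntn5 subtype, Purkinje-gated cells in which the 5 opposing genes prevailed, overlapped between genotypes as well. Nrgn/Nrp2 cells were 67.7% and 39.1% of the cells of both subtypes in the En1/2 CKO libraries, and 62.4% and 18.8% in the control libraries. The En1/2 CKO replicate 2 and control replicate 2 pools each held more Nefl/Cntn5 than Nrgn/Nrp2 cells, and the other pool of each genotype held fewer.

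**Figure D3:**
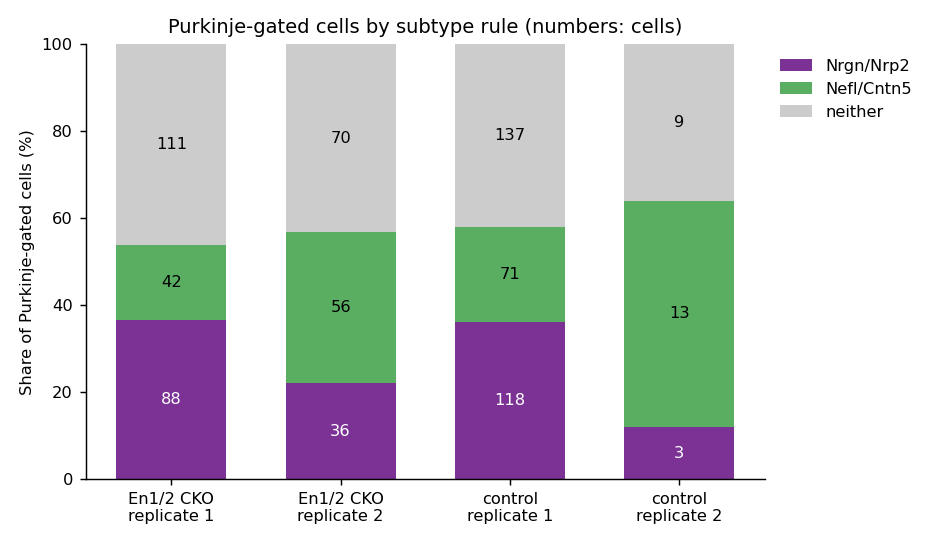
Stacked bars of the percent of Purkinje-gated cells (y axis) in each library that were Nrgn/Nrp2 cells, Nefl/Cntn5 cells or neither; numbers inside the bars count cells. The Nrgn/Nrp2 share is 36.5% and 22.2% in the En1/2 CKO libraries and 36.2% and 12% in the control libraries, so the genotypes overlap.

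Against Nefl/Cntn5 cells, the Nrgn/Nrp2 subtype held more Neurod2, Glra2 and Mir99ahg and less Fgf3 in each library. Top2a was lower in the 3 larger libraries. Both classes come from the same 4 libraries and were separated by 9 measured genes, so the other genes are described without a test. Of 4707 genes compared, 303 were higher and 420 lower in the subtype in all 4 libraries. Without control replicate 2 the counts were 615 and 714 of 4398 genes. How many genes would keep 1 direction without any difference between the classes was not tested, so these counts alone show no difference. Neurod2, a basic helix-loop-helix factor of neuronal differentiation, stood at 612, 460.2, 361 and 367 CPM in Nrgn/Nrp2 cells, against 158, 67.4, 182 and 22.2 CPM in Nefl/Cntn5 cells, in the order En1/2 CKO replicates 1 and 2 and control replicates 1 and 2. Glra2, a fetal glycine receptor subunit, stood at 228, 254, 132 and 489.7 CPM, against 87.7, 44.9, 60.5 and 88.6 CPM. The non-coding Mir99ahg transcript stood at 488, 555, 375 and 612 CPM, against 202, 139, 174 and 88.6 CPM. All 3 were higher in each library, with lowest log2 ratios of CPM + 10 of 0.95 for Neurod2, 1.01 for Glra2 and 1.07 for Mir99ahg.

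Other genes on the higher side were Tll1, a metalloprotease, Cnpy1, a regulator of FGF signalling known from zebrafish, Gpc6, a glypican, Dusp6, a phosphatase of the ERK pathway, and Gm26871 and 4930563E22Rik, which carry no functional name. Their lowest log2 ratios lay between 0.83 and 1.29. Dusp6, Gm26871 and 4930563E22Rik reached a mean of 50 CPM only through control replicate 2, at 245, 122 and 245 CPM, which is under its floor of 367 CPM. In the other libraries Dusp6 stood at 15.99, 15.9 and 9.75 CPM in the subtype. Without control replicate 2, Tll1 remained among the 10 highest, joined by Pnoc, Gad2, an enzyme of GABA synthesis, Prdm8, Prkcb, Celf4, Negr1, Nwd2, Tafa1 and Zfp668. Gad2 stood at 284, 381 and 239 CPM and Pnoc at 320, 444 and 229 CPM in the 3 larger libraries of the subtype. GABA and glycine genes summed to 1415 and 1428 CPM in En1/2 CKO and 1321 and 857 CPM in control Nrgn/Nrp2 cells, against 903, 669.7, 1044 and 886 CPM in Nefl/Cntn5 cells, and were thus higher in the 3 larger libraries and not in control replicate 2. GABAergic interneuron markers summed to 1679, 1539, 1487 and 367 CPM in the subtype and to 1228, 382, 931 and 222 CPM in Nefl/Cntn5 cells, so they moved with it in each library, and the part of other GABAergic cells in this was not tested.

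On the lower side Fgf3, a fibroblast growth factor, stood at 63.9, 175, 166 and 122 CPM in Nrgn/Nrp2 cells, against 439, 679, 492 and 576 CPM in Nefl/Cntn5 cells. St6galnac5, a sialyltransferase, had 0, 0, 4.87 and 0 CPM, against 78.9, 44.9, 53.0 and 88.6 CPM, and Cdh8, a cadherin of neuronal patterning, 11.99, 0, 14.6 and 0 CPM, against 105, 49.4, 90.8 and 22.2 CPM. The values of these 2 genes in the subtype lay at or under the floor of 3 UMIs. Top2a, the topoisomerase of dividing cells, stood at 24.0, 15.9, 19.5 and 0 CPM, against 114, 112, 75.7 and 111 CPM. Its subtype values in En1/2 CKO replicate 2 and control replicate 2 lay under the floors of 47.6 and 367 CPM. The 0 in control replicate 2 thus cannot place Top2a below the Nefl/Cntn5 cells there. The cyclin Ccna2 and the linker histone Hist1h1b were also among the 10 lowest, with Gm30382, Tmem132d, Fblim1 and the neuropeptide gene Cck. The cell cycle list summed to 520, 540, 853 and 1224 CPM in the subtype, against 1491, 1546, 1150 and 1817 CPM in Nefl/Cntn5 cells. It was lower in every library. Rora, at 368, 548, 235 and 709 CPM in Nefl/Cntn5 cells, and Lhx1, a LIM homeodomain factor, at 192, 302, 205 and 367 CPM in the subtype against 509, 517, 265 and 576 CPM, were lower in the subtype too, except for Rora in control replicate 1. Ebf2, another helix-loop-helix factor, stood higher in the 3 larger libraries, at 348, 270 and 356 CPM against 237, 89.9 and 166 CPM.

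**Figure D4:**
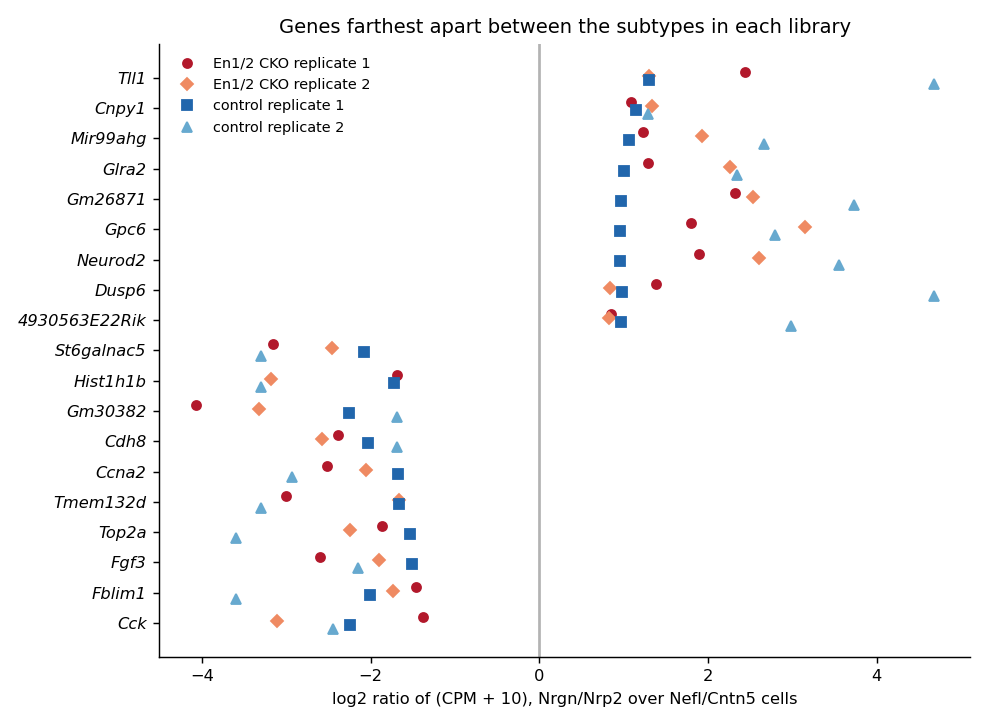
Log2 ratio of CPM plus 10 in Nrgn/Nrp2 over Nefl/Cntn5 cells (x axis) for 9 of the 10 genes farthest above and the 10 farthest below in all 4 libraries; each point is a library. The genes of the upper group lie right of 0 and those of the lower group left of 0 in each library, which the choice of genes fixes, and control replicate 2, with 3 Nrgn/Nrp2 cells, gives many of the widest ratios.

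Between genotypes, the targeted genes were read first. En2 stood at 56.0 and 31.7 CPM in En1/2 CKO Nrgn/Nrp2 cells, against 156 and 367 CPM in control cells. Both En1/2 CKO libraries were thus lower, on 14, 2, 32 and 3 UMIs in the order En1/2 CKO replicates 1 and 2 and control replicates 1 and 2. En2 had a log2 fold change of -1.73 (SE 0.47) and an adjusted p of 0.464 in edgeR's quasi-likelihood test. Without control replicate 2 it was -1.58 with an adjusted p of 0.0301, and outside the Purkinje gate En2 stood at 29.5 and 15.2 CPM in the En1/2 CKO libraries, against 99.8 and 47.6 CPM. En1 overlapped, at 128 and 381 CPM in En1/2 CKO cells and 307 and 122 CPM in control cells (log2 fold change -0.47, SE 0.53, edgeR adjusted p = 0.882). In GRCm38, En1 occupies bases 120602418 to 120607992 of chromosome 1, and En2 bases 28165694 to 28172166 of chromosome 5. Which of their exons are floxed is not stated in the sources used here, and reads from the 3' end of a transcript can come from exons that were left in place, so the levels are no test of the genotype.

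No gene passed between genotypes with all 4 libraries. Of 2986 genes tested on summed UMIs, edgeR called 0 (0%) and DESeq2 0, at a Benjamini-Hochberg threshold of 0.05. At an unadjusted p under 0.05, 94 genes were higher (3.15%) and 105 lower (3.52%) in En1/2 CKO cells with edgeR. Both En1/2 CKO libraries lay above both controls for 551 genes (18.5%) and below both for 439 (14.7%). Data were also simulated from mean levels pooled over the libraries, their depths and the dispersion trend. The test recovered 78 of the 87 simulated 4-fold changes that passed the low-count filter (89.7%). Differences between pools beyond that trend were not simulated, so this share need not hold for these libraries. Without control replicate 2 the test, now on 4963 genes, called 55 higher (1.11%) and 37 lower (0.746%), and without control replicate 1 it called 20. The count of calls thus differed with the control pools used, and without either of them 1 control pool is assumed to vary like the En1/2 CKO pools.

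On the lower side the smallest p belonged to Ccdc88c. Ccdc88c, a scaffold protein of Wnt and G-protein signalling, stood at 32.0 and 63.5 CPM in En1/2 CKO cells, against 224 and 245 CPM in control cells (log2 fold change -2.52, SE 0.47, edgeR adjusted p = 0.192). Rorb, an orphan nuclear receptor that marks a part of the Purkinje cells, stood at 67.9 and 175 CPM, against 361 and 367 CPM (-1.86, SE 0.50, adjusted p = 0.462). Neither passed, although the CPM values of the groups did not overlap. Nectin3, an adhesion molecule, stood at 91.9 and 47.6 CPM in En1/2 CKO cells and 258 and 367 CPM in control cells, and outside the Purkinje gate at 53.5 and 58.0 CPM, against 58.9 and 65.1 CPM. Pcp4, the calmodulin regulator Purkinje cell protein 4, stood at 63.9 and 63.5 CPM, against 180.3 and 245 CPM, and Car8, a carbonic anhydrase-related protein of Purkinje cells, at 7.99 and 15.9 CPM, against 87.7 and 122 CPM. Car8 had 2 and 1 UMIs in the En1/2 CKO libraries and 18 and 1 in the control libraries. Only control replicate 1 was thus above the floor of 3 UMIs for Car8, and its groups cannot be said to be apart. In control replicate 2 Ccdc88c and Pcp4 had 2 UMIs each, and Rorb and Nectin3 had 3 each. Of the controls, only control replicate 1 was thus above the floor for these genes too. The log2 fold changes of Nectin3, Pcp4 and Car8 were -1.72 (SE 0.44), -1.53 (SE 0.42) and -3.11 (SE 0.84), with edgeR adjusted p-values of 0.430, 0.469 and 0.462. In Nefl/Cntn5 cells Pcp4 stood at 211 and 494 CPM in the En1/2 CKO libraries and 204 and 576 CPM in the control libraries, and Car8 at 114 and 211 CPM, against 106 and 222 CPM, so the genotypes overlapped there.

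Igfbp5, a binding protein of insulin-like growth factors, stood at 32.0 and 15.9 CPM in En1/2 CKO cells, against 161 and 245 CPM in control cells (log2 fold change -2.51, SE 0.49, edgeR adjusted p = 0.192). Its value in control replicate 2 rests on 2 UMIs, under the floor of 3 UMIs. Igfbp5 was also lower in En1/2 CKO libraries outside the gate, at 93.3 and 90.6 CPM, against 299 and 172 CPM. Igfbp5 lies on chromosome 1 (72857932 to 72874884), as the floxed En1 allele does, so for Igfbp5 the effect of the mutation cannot be told apart from that of DNA linked to the allele. The gene also belongs to the 12 GABAergic interneuron markers, and the part of such cells in its level was not tested. The kinase Pkn2, the ubiquitin-specific peptidase Usp29 and AC149090.1 completed the lower 10, with log2 fold changes of -1.76, -1.67 and -1.496 and edgeR adjusted p-values of 0.462, 0.485 and 0.430.

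On the higher side 5 of the 10 named genes encode ribosomal proteins. Rps26 stood at 1131 and 968 CPM in En1/2 CKO cells, against 302 and 367 CPM in control cells (log2 fold change 1.79, SE 0.40, edgeR adjusted p = 0.427), and Rps12, Rpl17, Rps27 and Rps15a had log2 fold changes of 1.61 to 1.73. Genes of this family have near-identical copies elsewhere in the genome, which makes single counts uncertain. The ribosomal share of all UMIs in the subtype was 7.92% and 6.85% in the En1/2 CKO libraries, against 4.29% and 7.01% in the control libraries. Outside the Purkinje gate it was 10.6% and 10.1%, against 5.68% and 10.7%, so control replicate 1 was low in both populations and control replicate 2 was not. Malat1, a nuclear non-coding RNA, ran opposite, with 55832 and 67225 CPM in En1/2 CKO subtype cells and 112025 and 61942 CPM in control cells. The part of RNA composition in these differences was not tested.

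Rbfox3, the neuronal splicing factor also known as NeuN, stood at 208 and 111 CPM in En1/2 CKO cells, against 39.0 and 0 CPM in control cells (log2 fold change 2.23, SE 0.55, edgeR adjusted p = 0.430). Cblb, a ubiquitin ligase, stood at 148 and 159 CPM, against 34.1 and 0 CPM (2.14, SE 0.54, adjusted p = 0.430), where 0 allows up to 367 CPM. Outside the gate neither followed this order, with Rbfox3 at 47.7 and 43.6 CPM in the En1/2 CKO libraries, against 74.6 and 46.6 CPM, and Cblb at 50.001 and 40.9 CPM, against 53.8 and 38.7 CPM. Mllt11, a small protein known to act in the migration of cortical neurons, stood at 751 and 428 CPM in En1/2 CKO cells and 219 and 245 CPM in control cells (1.49, SE 0.41, adjusted p = 0.473), and outside the gate at 258 and 263 CPM, against 271 and 254 CPM. Tmsb4x, an actin-binding thymosin, stood at 5144 and 3968 CPM, against 1418 and 1714 CPM (1.73, SE 0.48, adjusted p = 0.469), and Gm10076 at 196 and 492 CPM, against 39.0 and 0 CPM (2.95, SE 0.68, adjusted p = 0.427). Outside the gate Gm10076 kept this order, at 245 and 656 CPM, against 78.1 and 80.1 CPM. Tmsb4x overlapped there, at 6837 and 7182 CPM, against 2334 and 9437 CPM.

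**Figure D5:**
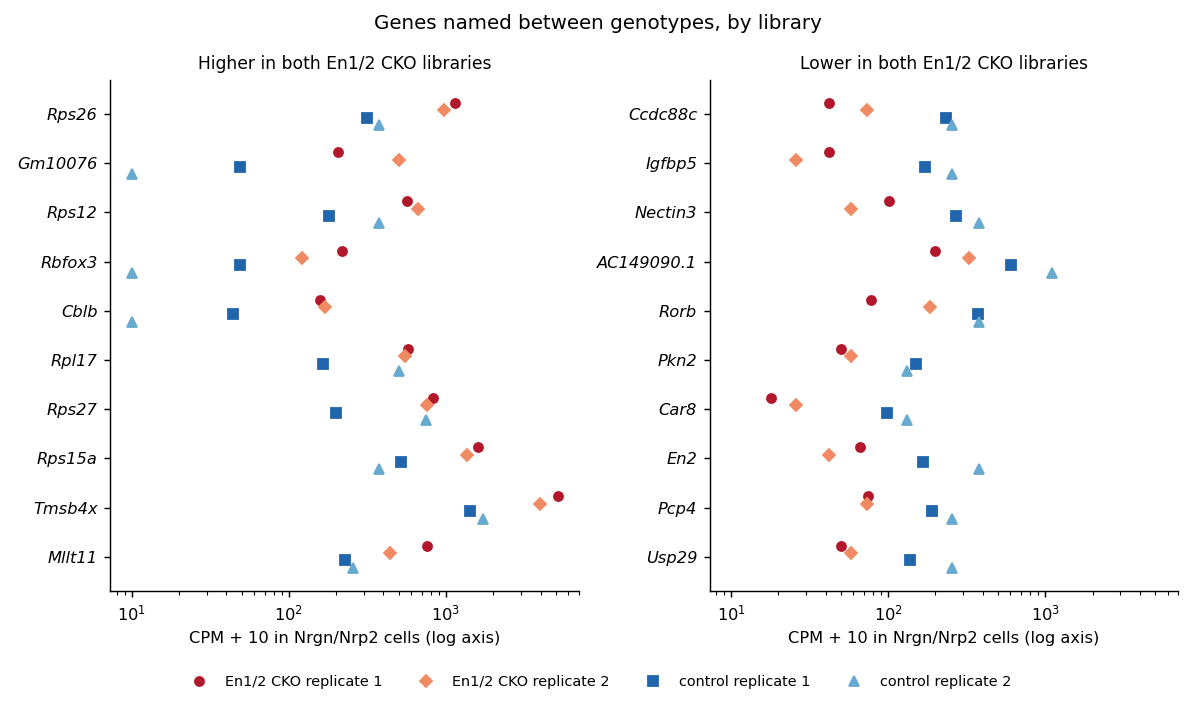
CPM plus 10 in Nrgn/Nrp2 cells on a log axis (x axis) for the 10 genes named on the higher side (left) and the 10 on the lower side (right) of the genotype comparison, each point a library. Both En1/2 CKO libraries lie beyond both control libraries, which the choice of genes fixes, and no gene passed edgeR's test with all 4 libraries.

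Of the 92 genes called without control replicate 2, 81 (88%) had both En1/2 CKO libraries on the same side of control replicate 1 outside the Purkinje gate as well, beside 3075 of all 4963 genes tested (62%). Both populations share the 3 libraries, so this is no independent support. Ribosomal protein genes made up 31 of the 55 higher genes, which is 37.3% of the 83 tested, beside 1.11% of all genes, and 80 of the 83 had a positive log2 fold change. The haemoglobin gene Hba-x, an embryonic globin of red cells, had the smallest p, at 91.9 and 127 CPM in En1/2 CKO cells and 1745 CPM in control replicate 1, and outside the gate at 156 and 198 CPM, against 1288 CPM. Erythroid markers as a list summed to 907 and 1016 CPM in En1/2 CKO cells, against 2983 and 0 CPM in control cells, and the part of red cell RNA in the calls was not tested. The remaining 11 of the 92 genes did not follow that side outside the gate. They were Mllt11, Rbfox3, Cblb, Nrg1, Uncx, Xist, Gm2694, Hecw1 and Rnf121 on the higher side and Pcp4 and Pcdh10 on the lower side. Nrg1, a ligand of ErbB receptors, stood at 292 and 286 CPM in En1/2 CKO cells and 97.5 CPM in control replicate 1, but at 612 CPM in control replicate 2. Xist, the RNA that coats the inactive X chromosome of female cells, stood at 803 and 1460.04 CPM in En1/2 CKO cells, against 507 and 2326 CPM, and the sexes of the pooled embryos are not given. Pcdh10, a protocadherin of Purkinje clusters, stood at 103.9 and 95.2 CPM, against 263 and 245 CPM.

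Lists of genes placed these values in pathways. Young neuron genes leaned higher: 17 of 21 passed the low-count filter, all 17 had a positive log2 fold change, none was called, and their median was 0.62, beside 0.02 over all genes tested. The list summed to 25976 and 24281 CPM in En1/2 CKO cells, against 19832 and 10528 CPM in control cells, and 11 of the 17 genes had both En1/2 CKO libraries above both controls, beside 18.5% of all genes. Tubb2b, a neuronal beta-tubulin, stood at 5971 and 5443 CPM, against 3875 and 1959 CPM, and Stmn1, a microtubule-destabilising protein, at 4556 and 4666 CPM, against 3348 and 2571 CPM. Outside the gate the list summed to 14549 and 14960 CPM in the En1/2 CKO libraries, against 15155 and 12169.8 CPM. In Nefl/Cntn5 cells it summed to 24499 and 26153 CPM in the En1/2 CKO libraries, against 18704 and 23085 CPM. Among Nrgn-free cells of the subtype it was lower in the En1/2 CKO libraries, at 16839 and 18164 CPM, than in control replicate 1, at 19529 CPM. Among Nrgn-rich cells it was higher, at 32908 and 32770 CPM, against 22413 CPM. The part of this mixture of cells in the lean was not tested. Without control replicate 2 the median log2 fold change of the young neuron list was 0.38, beside 0.02 over all genes tested. Granule lineage markers, which share Neurod1 and Rbfox3 with that list, had a median of 0.93 over 5 tested genes, 4 of them higher. Zic1 stood at 879 and 952 CPM in En1/2 CKO cells, against 419 and 0 CPM. The list summed to 1767 and 1619 CPM in En1/2 CKO cells, against 1028 and 122 CPM, and the part of granule lineage cells in this was not tested. GABAergic interneuron markers had 6 of 12 genes tested, 4 higher and 2 lower, with a median of 0.42 and none called. Igfbp5 was among the 2 lower genes.

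In the lists of Purkinje identity more log2 fold changes were negative than positive, and none of their members was called with all 4 libraries. Of the Purkinje subtype genes 14 of 28 were tested, 4 higher and 10 lower. Their median log2 fold change was -0.61, beside 0.02 over all genes tested. Their sum was 1879 and 1936 CPM in En1/2 CKO cells, against 2637 and 3917 CPM in control cells. Among Nrgn-free cells the sum was 2732 and 2514 CPM in the En1/2 CKO libraries, against 2785 CPM in control replicate 1. Among Nrgn-rich cells it was 1331 and 1077 CPM, against 1543 CPM. The part of this mixture of cells in the lower sums was not tested. Of the cadherins and protocadherins 8 of 20 were tested, 1 higher and 7 lower, with a median of -0.86, or -1.09 without control replicate 2. Pcdh17 stood at 124 and 175 CPM, against 151 and 857 CPM. Of the Purkinje calcium and signalling genes 8 of 26 were tested, 1 higher and 7 lower, with a median of -0.62, and their sum overlapped, at 1607 and 1777 CPM against 2135 and 1714 CPM. Among them was Atp2a2, the calcium pump of the endoplasmic reticulum, at 216 and 190.4 CPM, against 273 and 0 CPM. Of the Purkinje transcription factors 11 of 24 were tested, 3 higher and 8 lower (median -0.18), with Ebf1, a helix-loop-helix factor of early Purkinje cells, at 1411 and 1777 CPM, against 2871 and 1347 CPM. Bcl11a was at 488 and 889 CPM, against 502 and 1102 CPM. Without control replicate 2 the median log2 fold changes were -0.50 for subtype genes and -1.09 for cadherins and protocadherins. They were -0.59 for calcium and signalling genes and -0.18 for transcription factors, beside 0.02 over all genes tested. The lists share members.

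The partners of the 4 subtype genes were mostly near the centre of all genes. Neurogranin and calmodulin partners had 11 of 19 genes tested, 6 higher and 5 lower, with a median log2 fold change of 0.14. Calm2, a calmodulin gene, stood at 1599 and 1333 CPM in En1/2 CKO cells, against 975 and 1591 CPM in control cells, and Marcks, another substrate of protein kinase C, at 1615 and 1238 CPM, against 794 and 3060.4 CPM. PACAP receptors and neuropeptides had 7 of 24 tested, 2 higher and 5 lower (median -0.10). The PACAP receptor Adcyap1r1 itself was low, at 4.00 and 15.9 CPM, against 19.5 and 0 CPM. Neuropilin, semaphorin and plexin genes had 10 of 27 tested, 5 higher and 5 lower (median -0.06). Plxna4, a plexin that pairs with neuropilins, stood at 128 and 111 CPM, against 92.6 and 0 CPM, and Nrp1 at 0 and 0 CPM, against 9.75 and 0 CPM. The receptor partners of Islr2 had 3 of 14 tested, 1 higher and 2 lower (median -0.43). Ret, a receptor kinase that Islr2 is known to act with, had no UMI in En1/2 CKO cells and none in control cells, and Ntrk2, the BDNF receptor, stood at 112 and 190.4 CPM, against 205 and 245 CPM.

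Survival of Purkinje cells is named in the title of the series, and survival and death genes had 4 of 18 members tested, all 4 with positive log2 fold changes and none called, with a median log2 fold change of 0.45. Bax, a promoter of apoptosis, stood at 299.8 and 349 CPM in En1/2 CKO cells, against 292 and 490 CPM in control cells. The groups overlapped for Bax, whose log2 fold change of 0.03 is positive in the fit, which scales libraries by TMM factors, although its mean CPM was lower in En1/2 CKO cells. Dissociation stress genes had 4 of 18 tested, all with positive log2 fold changes and none called (median 0.48). Cell cycle genes had 2 of 23 tested, both lower, with Ccnd2 at 87.9 and 95.2 CPM, against 219 and 245 CPM. Reelin signalling had 8 of 12 tested, 3 higher and 5 lower (median -0.04), and the glutamate receptor and synapse list 9 of 28, 6 higher and 3 lower (median 0.07).

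The genotype effect was then compared with that in Nefl/Cntn5 cells of the same libraries, to ask whether it was particular to the Nrgn/Nrp2 subtype. Of 3493 genes tested for a difference of effects, with the library as a block, edgeR called 1 (0.0286%), Hba-x, and DESeq2 called 0. Its effect was lower in the Nrgn/Nrp2 subtype by 3.35 on the log2 scale (a difference of -3.35, SE 0.72, edgeR adjusted p = 0.00966). Hba-x stood at 91.9 and 127 CPM in En1/2 CKO and 1745 and 0 CPM in control Nrgn/Nrp2 cells, and at 263 and 71.9 CPM in En1/2 CKO and 280 and 0 CPM in control Nefl/Cntn5 cells. The difference thus rests on control replicate 1, whose cells outside the gate also held 1288 CPM. At an unadjusted p under 0.05 the effect was higher in the subtype for 37 genes (1.06%) and lower for 35 (1%). The next 4 genes by p were Olig1, Gm2694, Pvalb and Hopx, none of which passed (edgeR adjusted p = 0.295 each). For Hopx the difference was -3.62 with all libraries and 0.47 without control replicate 2. For the genes discussed above, such as Pcp4 and Car8, no difference between the subtypes was called.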

How the data were processed

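Per the labels' protocols, tdTomato-positive cells of pooled cerebella were sorted and 3' libraries were made with the 10x Genomics Chromium v3.1 chemistry. Per the submitters' processing notes, the authors used Cell Ranger 6.1.0 with the mm10 genome, and the deposited matrices hold whole-number UMI counts of 32286 genes, not normalized. How intron reads were counted is not given in the sources used here. Total counts were 20724086 and 21021428 UMIs over 8190 and 11513 barcodes in the En1/2 CKO libraries, and 15470932 and 5305154 UMIs over 10991 and 4619 barcodes in the control libraries.

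UMI counts of the subtype cells were summed per library and compared between genotypes with edgeR 4.0.16 in R 4.3.3 (filterByExpr, TMM, quasi-likelihood test, Benjamini-Hochberg threshold 0.05). The genotype effects in both subtypes were compared in a model with the library as a block. Shares were compared by exact permutation of libraries, and intervals are exact Clopper-Pearson 95% intervals. CPM are per 1e+06 UMIs of the summed cells and the floor is 3 UMIs. Ratios to Nefl/Cntn5 cells are of CPM + 10, over genes that averaged 50 CPM or more in the higher subtype. Coordinates come from GENCODE vM21 on GRCm38. DESeq2 1.42.0, other scaling, filters, gates, thinning and leaving out each library were alternatives. Scanpy's Scrublet marked 8 and 3 En1/2 CKO and 13 and 0 control subtype cells as doublets, which stayed in, and removing them was an alternative.

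The rule, the members and the 28 gene lists were chosen with earlier results of these data known. Genes named between genotypes were the 10 with the smallest p in each direction that averaged at least 20 CPM in a genotype with both En1/2 CKO libraries beyond both controls. Against Nefl/Cntn5 cells they were the 10 with the largest smallest-library ratio in each direction, and from each list the 4 most abundant members could be named; Gm2694 and other genes outside these rules are named because their count is small or because they belong to a list, and a few genes that these rules select are not reported here. On simulated data the genotype test recovered 89.7% of 4-fold changes among 2986 genes, and the test of the difference of effects recovered 32.3% of 4-fold and 90.1% of 16-fold changes among 3493 genes. These shares count changed genes that passed the low-count filter, and differences between pools beyond the dispersion trend were not simulated.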

Additional observations from a re-analysis of the deposited data

Results flagged for a closer look

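The genotype effect of the embryonic globin gene Hba-x differed between the Nrgn/Nrp2 and Nefl/Cntn5 subtypes, by -3.35 on the log2 scale in the test of the difference itself (SE 0.72, edgeR adjusted p = 0.00966). Hba-x is a red cell gene, and its 358 UMIs in the subtype cells of control replicate 1 set the difference.

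Barcodes that failed the quality filters but met the other conditions of the rule lie outside every comparison. They numbered 55 of 2954 failing barcodes and 10 of 3472 in the En1/2 CKO libraries, against 0 of 589 and 2 of 3442 in the control libraries. With barcodes of any mitochondrial share admitted, which was chosen after seeing the data, no gene was called between genotypes.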

How the results depend on the processing

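Between genotypes, the number of genes called ranged from 0 to 92 when each library was left out in turn, with 92 without control replicate 2, 20 without control replicate 1 and 0 without either En1/2 CKO library. It was 9 in cells with 1000 or more genes and no more than 5% mitochondrial UMIs, 13 with a sum of at least 3 UMIs of the subtype genes that exceeds 2 times the opposing sum, 1 with at least 4 UMIs in the Purkinje gate, 1 after thinning to 1000 UMIs, and 0 in the other alternatives. For the difference of effects the count ranged from 0 to 1 when each library was left out. It was 0 without the low-count filter, without the library block, with DESeq2, in the stricter cells, without doublets, after thinning and without a mitochondrial limit, and 1 with RLE factors and both narrower gates. The difference in the share of Purkinje-gated cells ranged from -6.83 to 17.4 percentage points when each library was left out, and that of kept barcodes from -0.247 to 0.986 and was -0.349 in the stricter cells. Genes higher and lower than in Nefl/Cntn5 cells in each library numbered 615 and 714 when control replicate 2 was left out. For En1 the log2 fold change was 0.027 with DESeq2 and ranged from -0.82 to 1.26 when each library was left out, and the difference of effects of Hopx from -10.6 to 0.47. Over the 21 genes named between genotypes, 207 of 247 alternative values kept direction and call, 37 passed the threshold and 3 reversed, all 3 of En1. The cause was not tested. With the replicate number as a block, 0 genes were called and the share differences of 5.27 and 0.370 percentage points had exact permutation p = 0.5. The numbers mark no stated pairing, and same-numbered libraries had deviations with a correlation of -0.0184. A library left alone in its genotype is assumed to vary like the others, and 3 cells in control replicate 2 limit what its zeros can show.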
